A study of Rattus norvegicus with 8 samples.

Results

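The genes followed here were 30 rat genes of cholesterol and fatty acid synthesis, in cultures of sensory ganglia. The list was drawn up by function, with earlier results of these data known, and 28 of the 30 were matched to array probes by RefSeq accession. No probe was matched for Srebf1, a lipogenic transcription factor, or for Lbr, a sterol reductase of the nuclear envelope. All 28 matched genes were well above background on all 8 arrays, and they stood among 12148 tested genes. The brightest tested probe represented each gene, which was a choice for 3 members with 2 tested probes (Fdps, Stard4 and Elovl6), while 25 members had 1.

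The cells were dissociated dorsal root ganglion cultures from Wistar rats aged 0 to 5 days, with male and female cells pooled. After 2 to 3 days in vitro a human protein was added for 5 days at 100 ng/ml, as the P61S/R100E double mutant (n = 3), the P61S single mutant (n = 3) or the wild type (n = 2). All 3 groups shared a serum-free medium with 5-fluoro-2′-deoxyuridine and uridine, which act against dividing cells, and cultures without the protein were not analysed here. Separate cultures or animals are not stated for the replicates, so the p-values describe the spread among these samples alone, which may be technical. One-colour Agilent arrays were hybridised, and each value below is a log2 signal relative to the 75th percentile of its own array, so that 0 marks that percentile.

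The arrays had 75th percentiles of 3267 to 5269 intensity units, with 78.7% to 88.8% of spots well above background and 0 saturated. Wild type replicate 2 stood apart, with correlations across probes of 0.983 to 0.989 with the other arrays, against 0.990 to 0.996 among those. Defining markers of the labelled tissue were present. Tubb3, a neuronal tubulin, averaged 4.26 ± 0.03 with P61S/R100E, 3.91 ± 0.06 with P61S and 4.09 ± 0.06 with wild type (SD, n = 3, 3 and 2). Fabp7, a marker of satellite glia, averaged -0.57 ± 0.12 with P61S/R100E, -0.64 ± 0.13 with P61S and -0.68 ± 0.29 with wild type. Mbp, a myelin protein, averaged 4.85 ± 0.16 with P61S/R100E, 4.62 ± 0.09 with P61S and 4.76 ± 0.03 with wild type.

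Cells make cholesterol from acetyl-CoA through mevalonate, farnesyl diphosphate, squalene and lanosterol, and they make fatty acids from the same acetyl-CoA. Sterol regulatory element-binding proteins switch on the genes of both routes: SCAP carries them from the endoplasmic reticulum to the Golgi for cleavage when sterols are low, and INSIG proteins hold SCAP back when sterols are high. In peripheral nerve, Schwann cells need both routes to build myelin, and growing sensory axons need lipid for new membrane.

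Promoter windows from 250 bases before to 50 after the start of the gene were taken from RefSeq (build GRCr8) for the 23 members that the sequence table holds. The 4 windows shown belong to the genes with an unadjusted p under 0.05 between P61S/R100E and P61S. Capitals mark every match to CCAAT, the box bound by NF-Y, or to GGGCGG, the GC box bound by Sp1, on either strand, so that ATTGG and CCGCCC are the same boxes read from the other strand. The windows are chr2:53382054-53382353 on the plus strand for Hmgcs1, chr13:84722705-84723004 on the minus strand for Hsd17b7, chr10:85963582-85963881 on the minus strand for Acly and chr1:253231682-253231981 on the minus strand for Scd.
Hmgcs1: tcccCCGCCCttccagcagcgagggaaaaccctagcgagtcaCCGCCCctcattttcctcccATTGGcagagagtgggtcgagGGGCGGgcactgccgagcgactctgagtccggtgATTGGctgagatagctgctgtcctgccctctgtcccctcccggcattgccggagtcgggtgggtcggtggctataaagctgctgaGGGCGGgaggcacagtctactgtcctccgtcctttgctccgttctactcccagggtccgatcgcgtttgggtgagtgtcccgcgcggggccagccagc
Hsd17b7: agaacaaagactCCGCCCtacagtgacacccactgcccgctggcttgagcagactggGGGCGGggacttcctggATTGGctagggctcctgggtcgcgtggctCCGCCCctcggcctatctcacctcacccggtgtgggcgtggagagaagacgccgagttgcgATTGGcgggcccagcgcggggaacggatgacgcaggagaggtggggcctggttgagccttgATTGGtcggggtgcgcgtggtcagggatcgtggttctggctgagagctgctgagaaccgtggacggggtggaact
Acly: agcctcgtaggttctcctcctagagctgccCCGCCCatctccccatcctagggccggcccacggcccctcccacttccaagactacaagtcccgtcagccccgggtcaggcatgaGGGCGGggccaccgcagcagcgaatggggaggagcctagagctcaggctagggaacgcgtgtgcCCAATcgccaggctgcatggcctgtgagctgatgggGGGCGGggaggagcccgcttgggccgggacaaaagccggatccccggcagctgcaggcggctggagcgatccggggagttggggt
Scd: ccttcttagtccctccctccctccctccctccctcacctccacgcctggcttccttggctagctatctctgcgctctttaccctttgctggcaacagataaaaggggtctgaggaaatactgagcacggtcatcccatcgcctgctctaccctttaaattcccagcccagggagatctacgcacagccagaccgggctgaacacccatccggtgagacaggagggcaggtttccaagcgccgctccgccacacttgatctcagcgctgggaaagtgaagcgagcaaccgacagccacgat
The window of Hmgcs1 holds 2 NF-Y boxes and 4 GC boxes, that of Hsd17b7 3 and 3, and that of Acly 1 and 3. The window of Scd holds 0 of either, which says only that these letters are not in it. CCAAT occurred in 18 of the 23 member windows (78.3%), against 37.7% of all 27457 windows in the table and 37.8% of the 9898 windows of tested genes. GGGCGG occurred in 19 (82.6%), against 34.9% and 57.6%. The E-box CACGTG occurred in 3 (13.0%; Scap, Insig1 and Sc5d), against 6.65% and 8.89%. A sterol regulatory element written as TCACNCCAC occurred in 0 of the 23, against 1.13% and 1.16%. In the member windows 2 pairs of matches overlapped each other. A match is a run of letters and not a measured binding site.

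The first comparison set the double mutant against the single mutant, which differ by the R100E change. Most of the sterol and fatty acid genes were a little higher with P61S/R100E: 24 of 28 had a positive difference (85.7%), against 46.5% of all tested genes, and the median member differed by 0.09 against -0.01 for all genes. The differences ran from -0.14 for Insig2 to 0.42 for Scd. In 8 members every P61S/R100E array was above every P61S array (28.6%), a separation found in 7.21% of all genes. These were Scap, Acat2, Hmgcs1, Idi1, Sqle, Hsd17b7, Acly and Scd. In 0 members did the groups separate in the other direction, against 8.48% of genes. In limma's fit across 23585 probes, 0 members and 0% of probes passed an adjusted p of 0.05, and the lowest adjusted p among members was 0.439. At an unadjusted p under 0.05, limma gave 4 members higher (14.3%; Scd, Hsd17b7, Hmgcs1 and Acly) and 0 lower, against 2.37% and 2.3% of all genes. The count of 4 fell to 1 with slide column as a covariate, entered as a number from 1 to 4 with wild type at 4. Here 2 P61S arrays lay in column 1 and 2 P61S/R100E arrays in column 3. Column 2, with 1 of each, was the only column with both proteins. Stard4 counts here as positive through its brighter probe, and its second probe was lower, as given with that gene.

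The second comparison set the double mutant against the wild type protein and used the same 3 P61S/R100E arrays. Here 20 of 28 members had a positive difference (71.4%), against 42.9% of all genes, with a median of 0.10 against -0.03 and a range from -0.49 for Acaca to 0.43 for Insig1. The 8 members named above were also separated from wild type, and Lss joined them, which made 9 (32.1%) against 7.46% of all genes. Separation upward from both P61S and wild type was found in 3.17% of all genes. In 0 members were the groups separated downward, against 8.73% of genes. No member and 0% of probes passed the adjusted threshold in limma (lowest adjusted p among members 0.746). At an unadjusted p under 0.05, limma gave 3 members higher (10.7%; Scd, Hsd17b7 and Lss) and 0 lower, against 2.03% and 3.15% of genes. The 2 wild type arrays shared slide column 4, which held no mutant array, so column and protein cannot be told apart in any comparison with wild type.

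The third comparison set P61S against wild type. The members fell on both sides of 0: 12 of 28 differences were positive (42.9%), against 42.8% of all genes, and the median was -0.01 against -0.02. P61S arrays lay above both wild type arrays for 3 members (10.7%; Lss, Dhcr7 and Fasn) and below both for 4 (14.3%; Srebf2, Cyp51, Hsd17b7 and Sc5d), against 8.4% and 9.31% of genes. For Hsd17b7 this was a near tie, with the closest arrays at -1.3081 with P61S and -1.3077 with wild type. No member and 0% of probes passed the adjusted threshold in limma, and 0 members had an unadjusted p under 0.05, against 0.593% of genes higher and 1.13% lower. The lowest adjusted p among members was 0.999. These 3 comparisons share arrays in pairs, so their values stand side by side and are not independent.

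**Figure D1:**
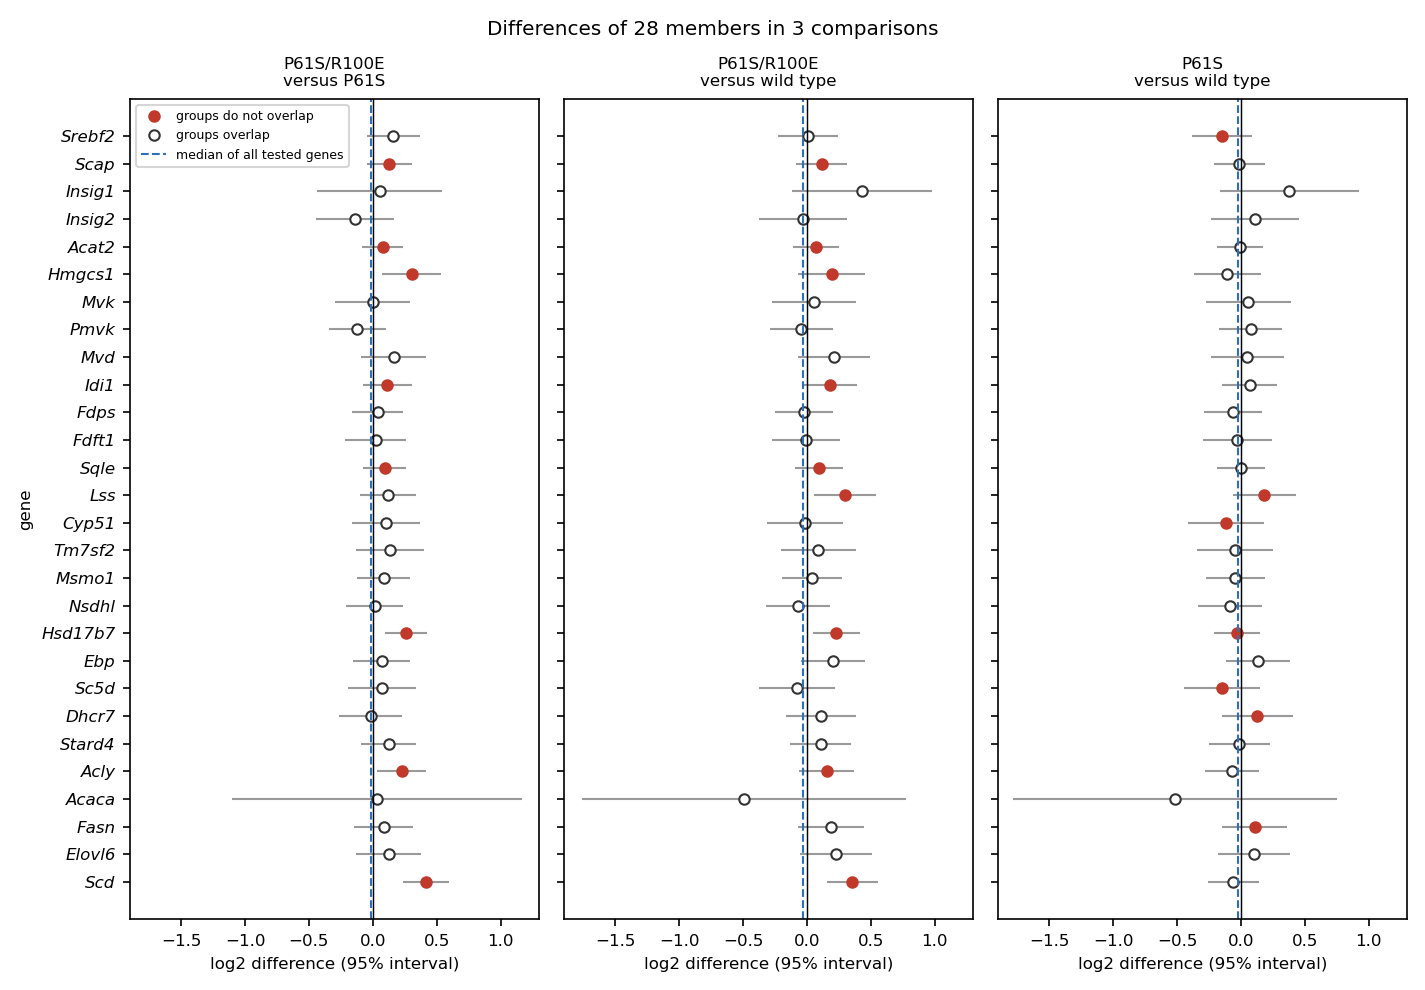
Log2 differences (x axis) of the 28 measured members (y axis) in the 3 comparisons, with limma's 95% intervals as grey lines and filled points where the compared arrays do not overlap. The dashed line is the median of all 12148 tested genes, and against P61S 24 of the 28 points lie above 0, with Scd highest at 0.42 and Insig2 lowest at -0.14.

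In bulk RNA from mixed cultures, a change in the number of cells of a type and a change in RNA per cell cannot be told apart, and this applies to every difference given here. Of the 4 measured regulators 3 had a positive difference from P61S, and 1 was separated from it. Srebf2, which encodes the transcription factor for sterol genes, measured 1.68, 1.90 and 1.79 with P61S/R100E, 1.61, 1.70 and 1.57 with P61S, and 1.73 and 1.82 with wild type. The P61S/R100E arrays overlapped both other groups, while all 3 P61S arrays lay below both wild type arrays. The difference from P61S was 0.16 (SE 0.09), and that from wild type was 0.01 (SE 0.10).

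Scap, the escort of these factors, measured 0.76, 0.85 and 0.84 with P61S/R100E, 0.74, 0.66 and 0.67 with P61S, and 0.75 and 0.66 with wild type. All 3 double mutant arrays were above the other 5, by 0.13 (SE 0.07) over P61S and 0.11 (SE 0.08) over wild type, with intervals that included 0. Insig1, an anchor of SCAP and itself a target of the binding proteins, measured 0.76, 0.73 and 0.44 with P61S/R100E, 0.56, 0.59 and 0.62 with P61S, and 0.62 and -0.19 with wild type. Its difference of 0.43 from wild type rested on wild type replicate 2: it was 0.03 without that array and 0.84 without wild type replicate 1 (limma, adjusted p = 0.042, with the lone array assumed to vary like the others). Insig2, the second anchor, measured -2.81, -2.86 and -3.12 with P61S/R100E, -2.63, -2.76 and -2.99 with P61S, and -2.96 and -2.85 with wild type. All groups overlapped for Insig2.

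Among the 7 mevalonate pathway genes the median difference was 0.08 from P61S and 0.07 from wild type. Hmgcs1, which makes HMG-CoA in the cytosol, measured 4.56, 4.39 and 4.39 with P61S/R100E, 4.07, 4.27 and 4.09 with P61S, and 4.34 and 4.16 with wild type. Every double mutant array was above every other array. The difference from P61S was 0.30 (SE 0.10, a 1.23-fold ratio; limma, unadjusted p = 0.0186, adjusted p = 1.00), and that from wild type was 0.20 (SE 0.11). Within slide row 1 the difference from P61S was 0.39, within row 2 it was 0.30, and within slide column 2, which held 1 array of each, it was 0.12.

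Acat2, the thiolase that starts the pathway, measured 3.51, 3.54 and 3.56 with P61S/R100E, 3.45, 3.48 and 3.45 with P61S, and 3.45 and 3.48 with wild type. Idi1, the isomerase of isopentenyl diphosphate, measured 2.23, 2.25 and 2.19 with P61S/R100E, 2.12, 2.09 and 2.10 with P61S, and 2.14 and 1.94 with wild type. Both were separated but by small amounts, of 0.08 (SE 0.07) and 0.11 (SE 0.08) from P61S, and neither reached an unadjusted p of 0.05 (limma, 0.296 and 0.200). The other 4 members here overlapped in each comparison. Mvd, the decarboxylase that yields isopentenyl diphosphate, differed from P61S by 0.16 and Fdps, the farnesyl diphosphate synthase, by 0.04. The kinases Mvk and Pmvk differed by -0.0022 and -0.12. The second probe of Fdps differed by 0.07.

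From squalene to lanosterol, Sqle, the squalene epoxidase, measured 2.81, 2.86 and 2.92 with P61S/R100E, 2.77, 2.80 and 2.74 with P61S, and 2.77 and 2.76 with wild type. Its groups were separated by 0.09 (SE 0.07) from P61S and 0.10 (SE 0.08) from wild type. Lss, which closes the ring to lanosterol, measured 0.78, 0.98 and 0.90 with P61S/R100E, 0.79, 0.78 and 0.72 with P61S, and 0.68 and 0.49 with wild type. Both mutant groups lay above wild type for Lss, P61S/R100E by 0.30 (SE 0.10; limma, unadjusted p = 0.0220, adjusted p = 0.746) and P61S by 0.18 (SE 0.10). The difference between P61S/R100E and wild type was 0.10 within slide row 1 and 0.45 within row 2, and 13 of 18 alternative fits kept an unadjusted p under 0.05. The fit without wild type replicate 2, where the difference was smallest among the fits that left out an array, was not among them. Fdft1, the squalene synthase, differed by 0.02 from P61S and -0.01 from wild type, and its groups overlapped.

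Of the 8 genes that convert lanosterol to cholesterol, Hsd17b7, the ketosteroid reductase of the C-4 demethylation complex, was the one whose groups were separated against P61S. It measured -1.10, -1.07 and -1.02 with P61S/R100E, -1.35, -1.31 and -1.32 with P61S, and -1.28 and -1.31 with wild type. The double mutant arrays stood clear of the other 5, whose own values lay close together. The difference was 0.26 (SE 0.07) from P61S, a 1.20-fold ratio (limma, unadjusted p = 0.00712, adjusted p = 0.933), and 0.23 (SE 0.08) from wild type. Within slide rows 1 and 2 and column 2 the difference from P61S was 0.23, 0.27 and 0.24. With slide column as a covariate the unadjusted p was 0.120.

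Of the partners of Hsd17b7 in that complex, Msmo1, the sterol oxidase, differed from P61S by 0.08 (SE 0.09) and Nsdhl, the decarboxylating dehydrogenase, by 0.01 (SE 0.09). Cyp51, the lanosterol demethylase, differed by 0.10 and Tm7sf2, a sterol reductase, by 0.14. The isomerase Ebp and the desaturase Sc5d differed by 0.07 each, and Dhcr7, the reductase of the last step, by -0.02. For Cyp51 and Dhcr7 the double mutant arrays themselves were scattered. Cyp51 measured 1.20, 1.40 and 1.58 with P61S/R100E, 1.32, 1.28 and 1.28 with P61S, and 1.33 and 1.48 with wild type. Dhcr7 measured 1.26, 1.48 and 1.62 with P61S/R100E, 1.48, 1.47 and 1.47 with P61S, and 1.37 and 1.32 with wild type. Sc5d measured 0.05, 0.08 and -0.26 with P61S/R100E, -0.18, -0.02 and -0.12 with P61S, and 0.05 and 0.03 with wild type. P61S arrays lay above wild type for Dhcr7 and below it for Cyp51 and Sc5d.

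The probes of Stard4, a cytosolic sterol carrier, disagreed. The brighter one differed by 0.12 (SE 0.09) from P61S and 0.11 (SE 0.10) from wild type, while a second, dimmer one differed by -0.38 (SE 0.10; limma, unadjusted p = 0.00568, adjusted p = 0.864) and -0.40 (SE 0.11). No direction is therefore drawn for Stard4, which the counts above take from the brighter probe.

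The fatty acid genes held the widest separation. Scd, the desaturase that makes monounsaturated fatty acids, measured 1.10, 1.13 and 1.20 with P61S/R100E, 0.72, 0.70 and 0.76 with P61S, and 0.85 and 0.72 with wild type. The lowest double mutant array was above the highest of the other 5. The difference from P61S was 0.42 (SE 0.08), a 1.33-fold ratio (limma, unadjusted p = 0.000968, adjusted p = 0.439), and that from wild type was 0.36 (SE 0.08; unadjusted p = 0.00416, adjusted p = 0.746 in limma). P61S and wild type overlapped and differed by -0.06 (95% interval -0.26 to 0.14).

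Scd had an unadjusted p under 0.05 in limma in all 19 alternative fits tested against P61S, where the difference ran from 0.39 to 0.44 and the lowest adjusted p was 0.159. It did so in all 18 fits against wild type, with differences from 0.25 to 0.44 over 20 alternatives, single-row values included. Within slide rows 1 and 2 the difference from P61S was 0.39 and 0.40, and within column 2 it was 0.43. Scd2, a close paralog with a probe of its own, averaged 4.91 ± 0.05 with P61S/R100E, 4.77 ± 0.07 with P61S and 4.85 ± 0.01 with wild type. Cross-hybridisation between the paralogs was not tested.

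Acly, which cuts citrate into cytosolic acetyl-CoA for both routes, measured 4.93, 4.77 and 4.88 with P61S/R100E, 4.58, 4.70 and 4.63 with P61S, and 4.69 and 4.72 with wild type. The double mutant arrays were again above the other 5, by 0.23 (SE 0.08; limma, unadjusted p = 0.0266, adjusted p = 1.00) over P61S and 0.16 (SE 0.09) over wild type. Within slide rows 1 and 2 the difference from P61S was 0.29 and 0.20, and within column 2 it was 0.07. Fasn, the fatty acid synthase, measured 2.74, 2.98 and 3.03 with P61S/R100E, 2.84, 2.80 and 2.86 with P61S, and 2.77 and 2.69 with wild type, so that the P61S arrays lay above wild type. With P61S/R100E it differed by 0.08 (SE 0.10) from P61S and 0.19 (SE 0.11) from wild type, and Elovl6, which lengthens palmitate, by 0.12 (SE 0.11) and 0.23 (SE 0.12). The dimmer probe of Elovl6 differed from P61S by 0.30 (SE 0.22). Acaca, the carboxylase that makes malonyl-CoA, had a dim probe with SDs of 0.69 with P61S/R100E, 0.04 with P61S and 1.18 with wild type, so its differences of 0.03 and -0.49 had SEs of 0.48 and 0.54.

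**Figure D2:**
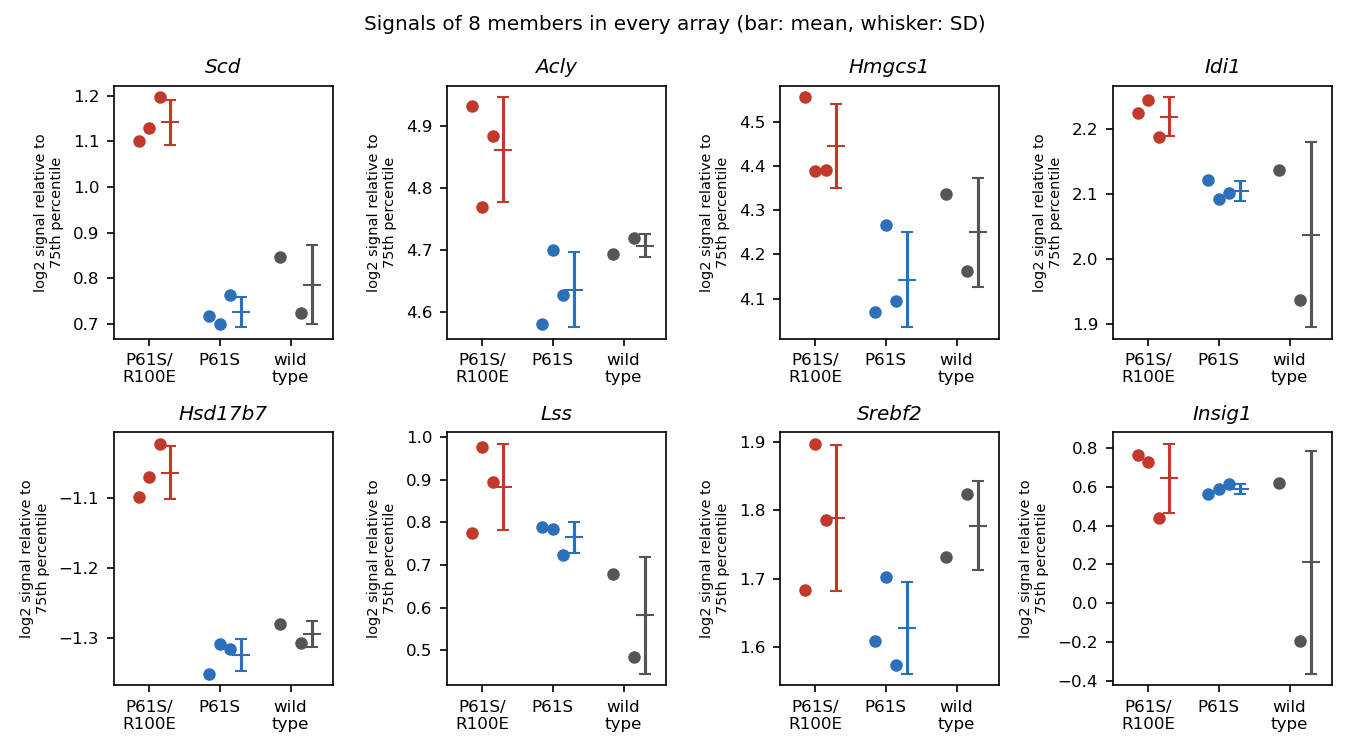
Log2 signal (y axis, 0 at the 75th percentile of the array) of 8 members in every array of P61S/R100E (red), P61S (blue) and wild type (grey), with bars at the mean and whiskers of 1 SD (n = 3, 3 and 2). Scd, Acly, Hmgcs1, Idi1 and Hsd17b7 have every red point above every other point, Lss and Srebf2 overlap between red and blue, and Insig1 has 1 low wild type array at -0.19.

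The members were read array by array, as the number above their own mean over the 8 arrays. It was 17, 22 and 23 of 28 in the P61S/R100E arrays, 12, 8 and 6 in the P61S arrays, and 10 and 11 in the wild type arrays. Of all tested genes the share was 47.8%, 40.7% and 53.6% in the P61S/R100E arrays, 43.0%, 58.0% and 40.8% in the P61S arrays, and 41.2% and 59.8% in the wild type arrays. Every P61S/R100E array thus had more members above their mean than any other array, although P61S/R100E replicate 1 had the fewest of its group. Of the 5 fatty acid synthesis genes, 3, 4 and 5 were above their mean in the P61S/R100E arrays, 2, 0 and 1 in the P61S arrays, and 1 and 1 in the wild type arrays.

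The members also varied more among the double mutant arrays than among the P61S arrays. The median SD of a member was 0.11 with P61S/R100E, 0.04 with P61S and 0.11 with wild type, and over all genes it was 0.14 with P61S/R100E, 0.08 with P61S and 0.15 with wild type. The SD was larger with P61S/R100E than with P61S for 26 of 28 members (92.9%), against 70.1% of all genes.

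**Figure D3:**
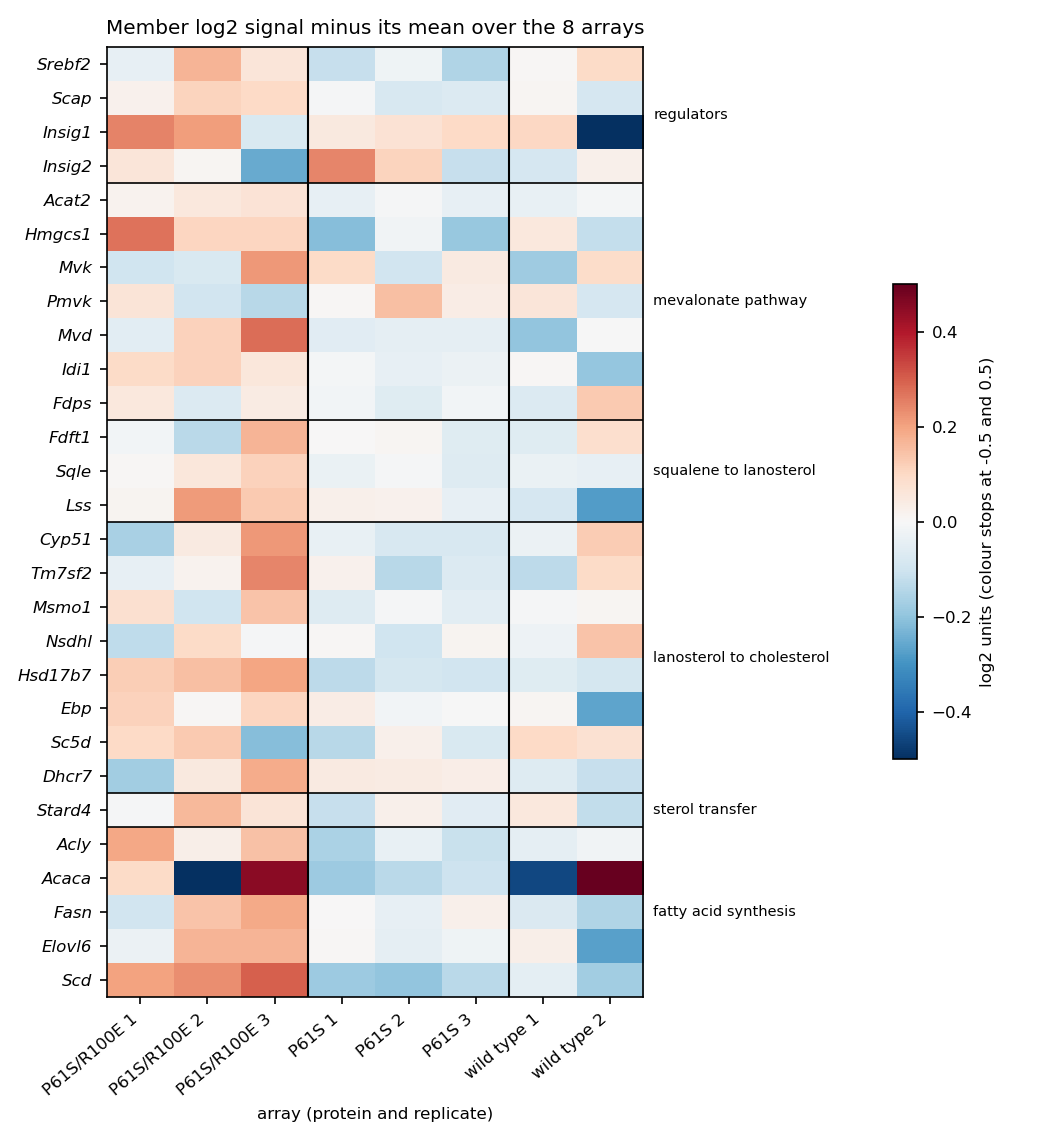
Each cell gives a member's log2 signal minus its mean over the 8 arrays (colour, log2 units, stopping at -0.5 and 0.5), with genes as rows ordered by role and arrays as columns grouped by protein. The P61S/R100E columns hold 17, 22 and 23 of 28 genes above their mean, the P61S columns 12, 8 and 6 and the wild type columns 10 and 11, and the strongest single cells are Acaca and the Insig1 value of wild type replicate 2.

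The size of the members' shift differed between positions on the slide. Against P61S the member median was 0.03 within slide row 1 (17 of 28 positive; all genes -0.02), 0.13 within row 2 (23 of 28; all genes 0.01) and 0.12 within column 2 (22 of 28; all genes -0.06). Row 1 held 1 P61S/R100E array and 2 P61S arrays, row 2 the reverse, and column 2 held 1 of each, so these values have no replicate check. Against wild type the median was 0.08 within row 1 and 0.12 within row 2, with 20 of 28 positive in both. All genes there had medians of 0.02 within row 1 (55.7% positive) and -0.07 within row 2 (41.8% positive). The member median minus that of all genes was thus 0.06 within row 1 and 0.18 within row 2.

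Neighbouring pathways were read from lists of other genes. Of 20 genes for fatty acid supply, elongation and desaturation, 13 were higher with P61S/R100E than with P61S (65%, against 46.5% of all genes; median 0.05), with 3 separated upward and 1 downward (7.21% and 8.48% of all genes). Elovl4, which elongates very long fatty acids, had the smallest p (0.49, SE 0.20; limma, unadjusted p = 0.0449, adjusted p = 1.00), from a dim probe whose groups overlapped. Acsl3, which activates fatty acids, averaged 0.70 ± 0.07 with P61S/R100E, against 0.43 ± 0.06 with P61S (SD over 3 arrays each; limma, unadjusted p = 0.0519). For P61S/R100E against wild type 8 of the 20 were positive (median -0.07), against 42.9% of all genes, and for P61S against wild type 1 was (median -0.12), against 42.8%.

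Of 11 genes of fatty acid oxidation 7 were lower with P61S/R100E than with P61S (63.6%), against 53.5% of all genes, with a median of -0.03 against -0.01. In 2 of them the groups were separated downward and in 0 upward, against 8.48% and 7.21% of all genes. These 2 were Cpt1a and Hadha. Cpt1a, which admits fatty acids to mitochondria, averaged 0.04 ± 0.09 with P61S/R100E, 0.25 ± 0.07 with P61S and 0.23 ± 0.13 with wild type (SD, n = 3, 3 and 2). Its difference from P61S was -0.21 (SE 0.09; limma, unadjusted p = 0.0532, adjusted p = 1.00). Hadha, a subunit of the trifunctional protein of oxidation, averaged 0.51 ± 0.16 with P61S/R100E, 0.82 ± 0.04 with P61S and 0.83 ± 0.32 with wild type, and its difference from P61S was -0.31 (SE 0.14). Against wild type 6 of 11 were positive for P61S/R100E (median 0.01) and 8 of 11 for P61S (median 0.06), where all genes gave 42.9% and 42.8%.

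The remaining lists covered the machinery around the regulators and the fate of sterols, and for them too all genes gave 46.5% higher, 7.21% separated upward and 8.48% downward. Of 11 genes for cleavage of the binding proteins and their cofactors, 4 were higher with P61S/R100E than with P61S (median -0.02), and 1 was separated upward. That 1 was Sp1, the GC box factor (0.22, SE 0.12). Nfyc, an NF-Y gene, differed by -0.18 (SE 0.13) and Erlin2, with a dim probe, by 0.34 (SE 0.40), both with overlapping groups. Of 17 genes of sterol transport, storage and efflux, 10 were higher (median 0.03). In 2 of them the groups were separated upward and in 1 downward, and Npc1, the lysosomal cholesterol exporter, was separated by 0.15 (SE 0.08). Stard5, which had the smallest p of that list, differed by -0.30 (SE 0.16) and Ch25h by 0.23 (SE 0.15), both with dim probes and overlapping groups. Of 9 genes of the isoprenoid branch 2 were higher (median -0.03), and 1 was separated downward. That 1 was Pdss2, which differed from P61S by -0.09 (SE 0.12). Against wild type Pdss2 was separated upward with both mutants, by 0.26 (SE 0.13) with P61S/R100E and 0.35 (SE 0.13) with P61S. Its unadjusted p in limma for P61S against wild type was 0.0320 (adjusted p = 0.999). In these 3 lists 0 genes had an unadjusted p under 0.05 between P61S/R100E and P61S in limma, and no gene of any neighbouring list passed the adjusted threshold in any comparison.

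**Figure D4:**
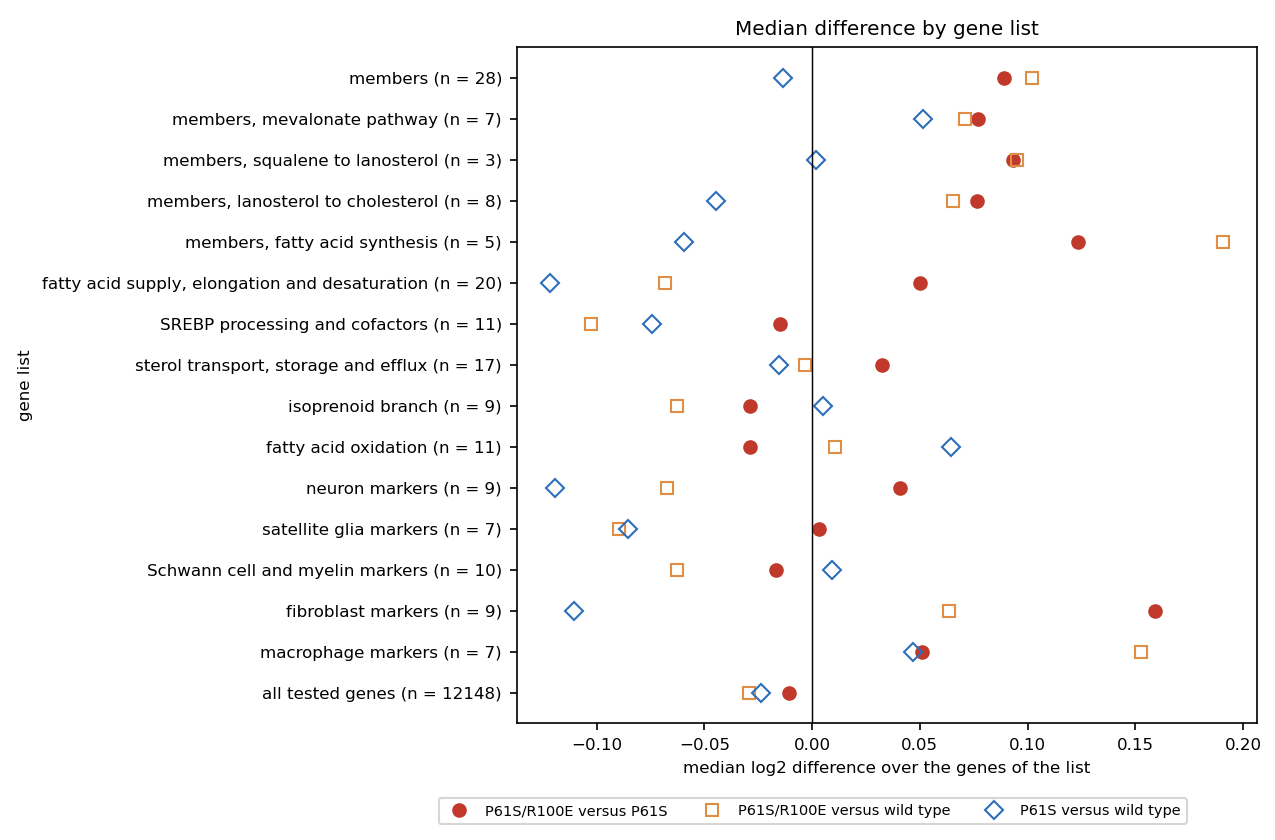
Median log2 difference (x axis) over the genes of each list (y axis, n in brackets) for P61S/R100E versus P61S (red circles), P61S/R100E versus wild type (orange squares) and P61S versus wild type (blue diamonds). The members have medians of 0.09, 0.10 and -0.01, fatty acid oxidation has -0.03, 0.01 and 0.06, and all tested genes have -0.01, -0.03 and -0.02.

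Markers of cell types were read beside these values, and none passed the adjusted threshold in limma in any comparison. For all marker counts below, all genes gave 46.5% higher for P61S/R100E against P61S. They gave 42.9% for P61S/R100E against wild type and 42.8% for P61S against wild type. Of 9 fibroblast markers 8 were higher with P61S/R100E than with P61S (median 0.16), and their summed linear level, in multiples of the 75th percentile, ran from 154.9 to 187.3 with P61S/R100E, 146.8 to 162.3 with P61S and 162.9 to 163.1 with wild type. Against wild type 5 of 9 were higher with P61S/R100E (median 0.06) and 0 of 9 with P61S (median -0.11). With P61S 3 of the 9 were separated downward from wild type, against 9.31% of all genes. Col3a1, a fibrillar collagen, was separated between P61S/R100E and P61S by 0.23 (SE 0.11). Of 9 measured neuron markers 5 were higher (median 0.04), with sums of 171.6 to 185.9 with P61S/R100E, 158.7 to 184.3 with P61S and 169.2 to 194.2 with wild type. Against wild type 3 of 9 were higher with P61S/R100E (median -0.07) and 1 of 9 with P61S (median -0.12). Of these 9 markers 2 were separated upward from wild type with P61S/R100E, against 7.46% of all genes. They were Tubb3, by 0.17 (SE 0.08), and Stmn2, by 0.13 (SE 0.12). With P61S 1 was separated downward from wild type, Tubb3, which differed by -0.17 (SE 0.08), against 9.31% of all genes. Tubb3 was separated between P61S/R100E and P61S by 0.35 (SE 0.08; limma, unadjusted p = 0.00265, adjusted p = 0.654). Of other neuron markers, Stmn2 differed from P61S by 0.15 (SE 0.11) and Syt1, with a dim probe, by -0.39 (SE 0.41), both with overlapping groups. Of 7 satellite glia markers 4 were higher (median 0.00), with sums of 40.24 to 48.95 with P61S/R100E, 44.13 to 45.64 with P61S and 42.24 to 49.35 with wild type.

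Of 10 Schwann cell and myelin markers 4 were higher (median -0.02), with sums of 85.29 to 96.44 with P61S/R100E, 82.35 to 88.35 with P61S and 87.24 to 87.25 with wild type. Mbp differed from P61S by 0.23 (SE 0.10), Egr2 by -0.20 (SE 0.11) and Prx by -0.33 (SE 0.19), each with overlapping groups. Of 7 measured macrophage markers 4 were higher (median 0.05), with sums of 2.97 to 3.68 with P61S/R100E, 2.83 to 4.14 with P61S and 2.79 to 3.04 with wild type. Rbfox3, a neuronal marker, had no matched probe, and Cd163 and Mrc1, macrophage receptors, were not tested: no probe of theirs was above background on every array of a group, and that of Cd163 was so on 0 of 8 arrays. Against wild type, satellite glia markers were higher for 2 of 7 with P61S/R100E and 2 of 7 with P61S, Schwann cell and myelin markers for 5 of 10 with each, and macrophage markers for 4 of 7 with each. Between P61S/R100E and wild type 2 macrophage markers were separated upward and 1 Schwann cell and myelin marker downward, against 7.46% and 8.73% of all genes. Ptprc, a macrophage marker with a dim probe (mean -4.40 with P61S/R100E), was separated upward from P61S by 0.24 (SE 0.10). It was also separated from wild type, by 0.30 (SE 0.12; limma, unadjusted p = 0.037, adjusted p = 0.746). The brighter macrophage markers Tyrobp and Aif1 differed from P61S by 0.23 (SE 0.14) and 0.17 (SE 0.12). Their P61S/R100E arrays overlapped both P61S and wild type. The part of these markers in the members' differences was not tested.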

How the data were processed

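RNA of 8 samples was measured on 1-colour Agilent arrays of design 028279, built on genome build rn4, per the file headers. Per the labels, samples needed an RNA integrity number of at least 8.0. The deposited scanner files hold spot intensity values that Feature Extraction 10.7.3.1 (protocol GE1_107_Sep09) had background-subtracted and detrended, per the file headers. Log2 values were computed here from the deposited processed intensity, minus the log2 75th percentile of the array over 58717 spots that were not controls. Outlier spots were left out and spots of a probe averaged. A separate table that the authors deposited holds log2 values of 22018 probes, which correlated at 0.999 or more with the scanner signals, were not normalized between arrays (medians 9.82 to 10.33) and served as an alternative.

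A probe was tested when all arrays of 1 group or more had it well above background (23585 probes, 12148 genes). Genes were named by RefSeq accession, and the brightest tested probe stood for each. One limma fit (limma 3.58.1, R 4.3.3) of 8 arrays with 3 group means gave differences, on 5 residual degrees of freedom (prior 1.93), with Benjamini-Hochberg adjustment over all tested probes. The number of arrays limits the precision. The fit was also run on simulated data with equal spread in all groups, unlike the spreads seen here, and no value above rests on that run. Summaries used Python 3.11.15.

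The members, the neighbouring lists and the markers were chosen with earlier results of these data known. Named genes were all members, values in every array being given for the regulators and for members with an unadjusted p under 0.05 and, added later, for other separated members. Some items of the neighbouring lists are not reported here and were left out of the lists' counts. Of each other list, genes were named from the 3 with the smallest p between P61S/R100E and P61S. Normexp background correction used median signals because the files give no mean signals. Alternatives covered normalization, filters, slide position, replicate block, variance model and each array left out. Slide row and column were read from the name of each scan and not from the labels. Same-numbered replicates had correlations of their deviations from -0.198 to 0.167, so the numbers were not used to pair samples.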

Additional observations from a re-analysis of the deposited data

How the results depend on the processing

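No alternative turned a member that had an unadjusted p under 0.05 to the other direction. Among all members, 137 of 1736 values under alternatives changed sign: 41 against P61S (at most 7 of 28, within slide row 1), 44 for P61S/R100E against wild type (at most 10, within row 1) and 52 for P61S against wild type (at most 10, without wild type replicate 2). Many of these values had no room to change sign. The filters, the variance model, the fit of only the 2 groups compared and arrays left out of the third group kept the compared means. The mean over all tested probes of a gene, which averages the opposed probes of Stard4, was not in this count. By size, and with that mean over probes included, 89 member values moved by at least 1 moderated residual SD of limma. The median over members was 0.034 in slide row 1 and 0.13 in row 2 for P61S/R100E against P61S (0.09 in the fit of all arrays). Against wild type it was 0.055 with normexp and quantile normalization and 0.18 with centring on the median of detected probes (0.10 otherwise). With that centring it was 0.044 for P61S against wild type (-0.01 otherwise). Then 26 of 28 members were positive for P61S/R100E and 19 of 28 for P61S against wild type, in place of 20 and 12. Of all genes 59.3% were then positive in each, in place of 42.9% and 42.8%. That centring takes a single value from each array, so the member median minus the median of all genes cannot change with it. This gap was 0.13 for P61S/R100E and 0.01 for P61S. For P61S/R100E against wild type it was 0.06 with normexp and quantile normalization and 0.08 with quantile normalization of the processed signal. It was 0.07 without wild type replicate 2 and 0.18 without wild type replicate 1. Scaling moved the median of all genes by less than 0.1.

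Members at an unadjusted p under 0.05 against P61S numbered 4, and 1 with slide column as a covariate and 2 to 4 without single arrays. The 2 came without P61S replicate 1, P61S replicate 3 or P61S/R100E replicate 1. Against wild type they numbered 3, and 1 with the replicate block (median 0.08), 1 in a fit of only the 2 groups compared, and 1 to 8 without single arrays (1 without wild type replicate 2, 5 without P61S/R100E replicate 1, 8 without wild type replicate 1). For P61S against wild type they numbered 0, and 0 to 4 without single arrays. Members past the adjusted threshold against wild type numbered 0 to 1 without single arrays, the 1 without wild type replicate 1. The replicate block left 3 members under 0.05 against P61S, a count within 1.5 times of 4, and changed no adjusted call.

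Probes past the adjusted threshold numbered 0 in all 3 comparisons. Against P61S there was 1 at an adjusted p under 0.10, 1 with the deposited values, 1 with the filter on all arrays, 6 with a variance trend and robust hyperparameters, and 0 to 3 without single arrays (3 without P61S replicate 2). Against wild type there was 1 in each of those 4 settings, 1 with normexp and quantile normalization, 1 with quantile normalization, and 0 to 1283 without single arrays. For P61S against wild type there was 1 with either quantile setting and 0 to 298 without single arrays. The counts of 1283 and 298 came without wild type replicate 1, which leaves the array that stood apart as the lone wild type. The causes of these moves were not tested.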
